A study of Mus musculus with 22 samples.

Results

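Genes of retinoic acid synthesis and response were followed through slabs of the whole mouse brain. There were 9 of them, listed by name and not by a threshold on their levels, out of 20129 genes named on the array. They were the synthetic enzymes Aldh1a1, Aldh1a2 and Aldh1a3, the binding and transport proteins Crabp1, Crabp2 and Rbp4, the degrading enzyme Cyp26b1 and the receptors Rarb and Rxrg. All 9 had a RefSeq-identified probe, and each of these probes was well above background in all 22 fractions. The brains came from 3 male C57BL/6J mice, an inbred strain, whose titles give 7 days after birth while the age field of the labels gives 3 days. Each brain was cut along 1 body axis into slabs, called fractions, and the total RNA of every fraction was hybridised to 1 array read in 1 colour. One mouse gave 10 coronal fractions, the next 6 horizontal and the third 6 sagittal ones. Fractions were not replicated, and precision is limited by how many arrays there were. Levels are log2 of the processed intensity relative to the 75th percentile of the array, and they are compared between fractions for 1 probe and never between probes. A fraction is a mixture of cells, so fewer cells of a type and less RNA per cell cannot be told apart.

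Retinoic acid is made from vitamin A, or retinol. Retinol travels in the blood bound to the product of Rbp4, is oxidised to retinal, and is then oxidised irreversibly to retinoic acid by the aldehyde dehydrogenases of the Aldh1a family. Inside a cell the acid is carried by the proteins of Crabp1 and Crabp2, is broken down by enzymes of the Cyp26 family, and binds nuclear receptors of the RAR family, which act on DNA as pairs with receptors of the RXR family. Around the brain, Aldh1a2 is known from the meninges, the membranes that wrap it, Aldh1a1 from midbrain dopaminergic neurons, and Rarb and Rxrg from the striatum, the large nucleus beneath the cortex.

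The labels did not say from which end of the brain fraction 1 was taken, and marker genes were read for orientation. The mean level of 6 olfactory bulb markers was highest in coronal fraction 10 (3.94) and that of 4 hindbrain markers in coronal fraction 1 (2.19). The horizontal series had its highest hypothalamic mean in fraction 6 (2.92). Coronal fraction 10 pooled slabs 10 and 11, sagittal fraction 1 pooled slabs 1 and 2, and sagittal fraction 6 pooled slabs 7 to 9. An array detected between 53.2% and 75.5% of its 55600 probes, and on 7 arrays (coronal 1 and 2, horizontal 1 to 3, sagittal 1 and 3) the slope of the spike-in controls was out of the scanner software's range.

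Change along each axis was tested over 39621 probes with limma, fitting to every series a straight and a curved (quadratic) term along the slabs, and p-values were adjusted by Benjamini-Hochberg over all of these probes with a threshold of 0.05. The spread in this test is the scatter of single arrays about a smooth curve and holds no difference between animals. Along the coronal axis 1 of the 9 genes changed, Aldh1a1, where 19.8% of all probes did. Along the horizontal axis 2 changed, Aldh1a2 and Aldh1a3, where 6.57% of all probes did. Of 16691 probes of named genes, picked in the way of those of the 9, 25.4% changed coronally and 8.35% horizontally. No gene of the 9 passed for the sagittal linear term, from the side of fraction 1 to that of fraction 6, where 10.2% of probes passed, and 0 had an unadjusted p under 0.05 in limma. None passed for the sagittal quadratic term, middle against both sides, where 0.0303% of probes passed and 1 of the 9, Aldh1a3, had an unadjusted p under 0.05 (0.0146). The unadjusted p was under 0.05 for 3 genes along the coronal axis, beside 38.8% of all probes, and for 7 along the horizontal axis, beside 38.0%. In the sagittal terms 24.0% and 14.8% of all probes had one. The median fitted range of the 9 was 1.14 log2 units along the coronal axis and 2.32 along the horizontal axis, beside 0.993 and 0.995 over all probes tested. Rarb and Crabp1 rose and fell within a few neighbouring coronal fractions, a shape that a quadratic curve does not follow. Their scatter about the fitted curves of the 3 series together was 0.837 and 0.840 log2 units, beside a median of 0.376 over all probes.

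**Figure D1:**
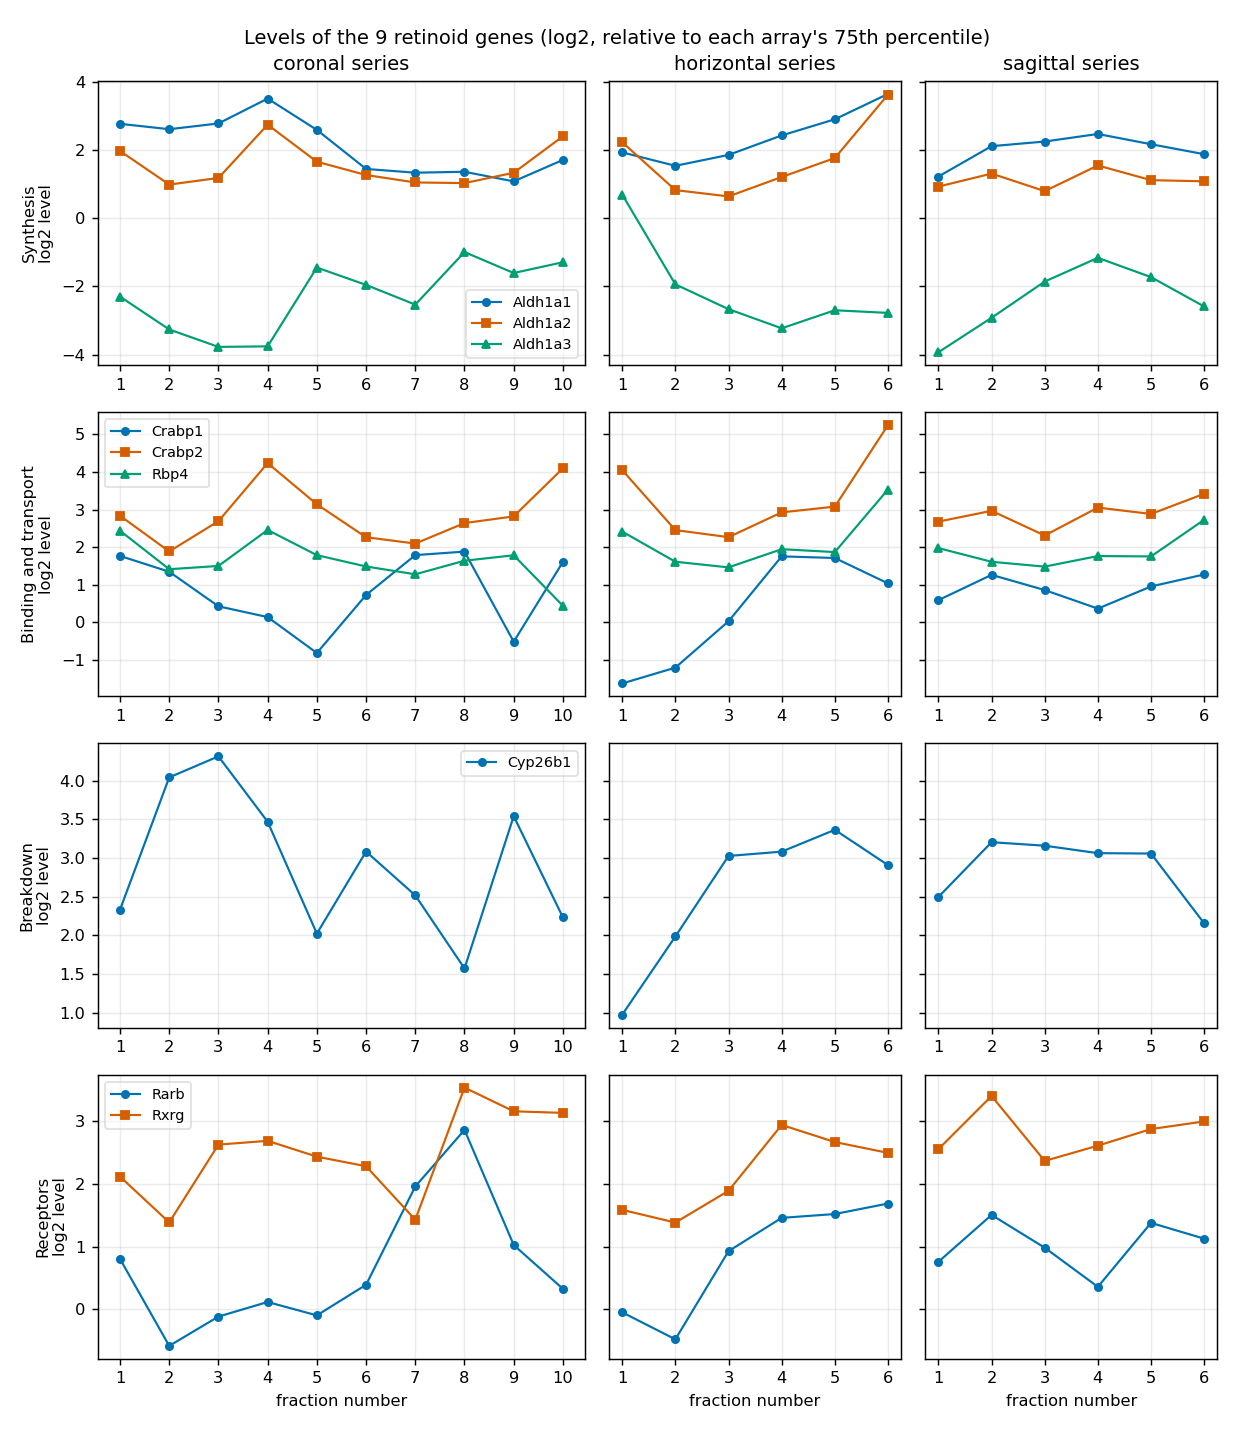
Level of each gene (log2, relative to the array's 75th percentile) against fraction number, with 1 column of panels per series and 1 row per role. Each point is 1 array and there are no error bars because every fraction was measured once. Aldh1a2 and Crabp2 peak in coronal fractions 4 and 10 and in horizontal fraction 6, Rarb peaks in coronal fraction 8, and Aldh1a3 stands highest in horizontal fraction 1.

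Among the synthetic enzymes, Aldh1a1 was high in the hindbrain-side coronal fractions and low in front. Its coronal levels from fraction 1 to 10 were 2.76, 2.60, 2.77, 3.50, 2.58, 1.44, 1.33, 1.36, 1.08 and 1.71, so that all 5 of fractions 1 to 5 lay above all 5 of fractions 6 to 10. The highest level, in fraction 4, was 5.37-fold the lowest, in fraction 9. The linear term fell by 1.92 ± 0.447 (SE) log2 units over the series (limma, adjusted p = 0.0225, n = 10 arrays of this series in a fit of 22). The 7 coronal arrays of 1 slide, fractions 1 and 3 to 8, showed it too, with fractions 1, 3, 4 and 5 at 2.58 or more and fractions 6, 7 and 8 at 1.44 or less. With the slide as a block the adjusted p was 0.138, with the coronal arrays alone 0.14, with median centring 0.0713 and without fraction 9 0.0595, so the call rests on these choices.

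Fraction 4 was also the coronal peak of the mean of 7 midbrain dopaminergic markers, at 0.993 against a series median of -1.03. Of single markers, Th was highest in fraction 10 (4.54) and Slc6a3 in fraction 5 (3.30). Over the coronal fractions the level of Aldh1a1 ran with the mean of 3 astrocyte markers at r = 0.814, of 2 red blood cell markers at 0.857 and of the dopaminergic markers at 0.481 (0.0982 without fraction 4). The mean of 8 meninges markers (r = 0.601, and 0.345 without fraction 4) also peaked in fraction 4. The means of the cerebellar, endothelial and hindbrain markers ran with it at r = 0.738, 0.736 and 0.668. The part of these cells in the fall was not tested. Horizontally, Aldh1a1 ran from 1.93, 1.53 and 1.85 in fractions 1 to 3 to 2.42, 2.89 and 3.64 in fractions 4 to 6, without overlap between these sets. The horizontal change did not pass (limma, adjusted p = 0.0596; 0.0334 when tested only among probes detected on every array), and the out-of-range arrays are the same fractions 1 to 3. Sagittal levels stayed between 1.22 and 2.46, lowest in fraction 1 and highest in fraction 4. Over those 6 fractions r was 0.969 with the 6 hypothalamic markers, 0.944 with the dopaminergic, 0.886 with the astrocyte and 0.322 with the red blood cell markers. The hypothalamic list was also the closest in the horizontal series (0.906), while in the coronal series its r was -0.595.

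Aldh1a2 had separate coronal peaks and stood highest in the outer horizontal slabs. Its coronal levels were 1.97, 0.98, 1.18, 2.74, 1.65, 1.26, 1.05, 1.03, 1.33 and 2.40 from fraction 1 to 10. Fractions 4 and 10 stood highest, and the coronal change did not pass (limma, adjusted p = 0.591). The horizontal levels were 2.22, 0.82, 0.64, 1.21, 1.76 and 3.62. Both outer slabs stood above the inner ones, and fraction 6 was 7.89-fold fraction 3. This change passed (limma, adjusted p = 0.0322, fitted range 2.95 log2 units, linear term 1.48 ± 0.600 SE). It was lost in limma when any 1 of the 6 horizontal fractions was left out (adjusted p = 0.0542 to 0.195), with median centring (0.0517), with the spike-in level as a covariate (0.116) and with the arrays of in-range slope alone (0.656). Sagittal levels lay between 0.79 and 1.54, the smallest range of this gene among the series.

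Aldh1a3 had another pattern. Its horizontal levels were 0.69, -1.94, -2.66, -3.22, -2.70 and -2.77, so that fraction 1 alone stood above the rest, 15.1-fold over fraction 4. The change passed (limma, adjusted p = 0.0331, linear term -2.88 ± 0.766 SE, n = 6 arrays of this series), and without fraction 1 the adjusted p was 0.565. It was also lost without any 1 of fractions 2 to 5 (0.054 to 0.0666), with the spike-in level as a covariate (0.152) and with the horizontal arrays alone (0.181), but not without fraction 6. Median centring (0.0564) and the linear term only (0.0675) lost it too, as did the arrays of in-range slope alone (0.999), which leave out fractions 1 to 3. Fraction 1 is an array with an out-of-range spike-in slope, and the part of that in its level was not tested. Coronal levels were -2.30, -3.26, -3.77 and -3.75 in fractions 1 to 4 and -1.45, -1.95, -2.53, -0.99, -1.61 and -1.29 in fractions 5 to 10. The front fractions stood higher with overlap only between fractions 1 and 7, and the change did not pass (limma, adjusted p = 0.0691). This coronal change did pass after quantile normalization (0.0481) and among probes detected on every array (0.0408). It also passed without coronal fraction 1 (0.0165) or 5 (0.0435). From side to side the level was -3.93, -2.92, -1.86, -1.16, -1.73 and -2.59, highest in the middle slab, where the quadratic term had an adjusted p of 0.205 in limma. That sagittal order ran with the means of the olfactory bulb (r = 0.941, n = 6), hypothalamic (0.930) and dopaminergic markers (0.926) alike, while horizontally r was -0.680, -0.232 and -0.746.

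**Figure D2:**
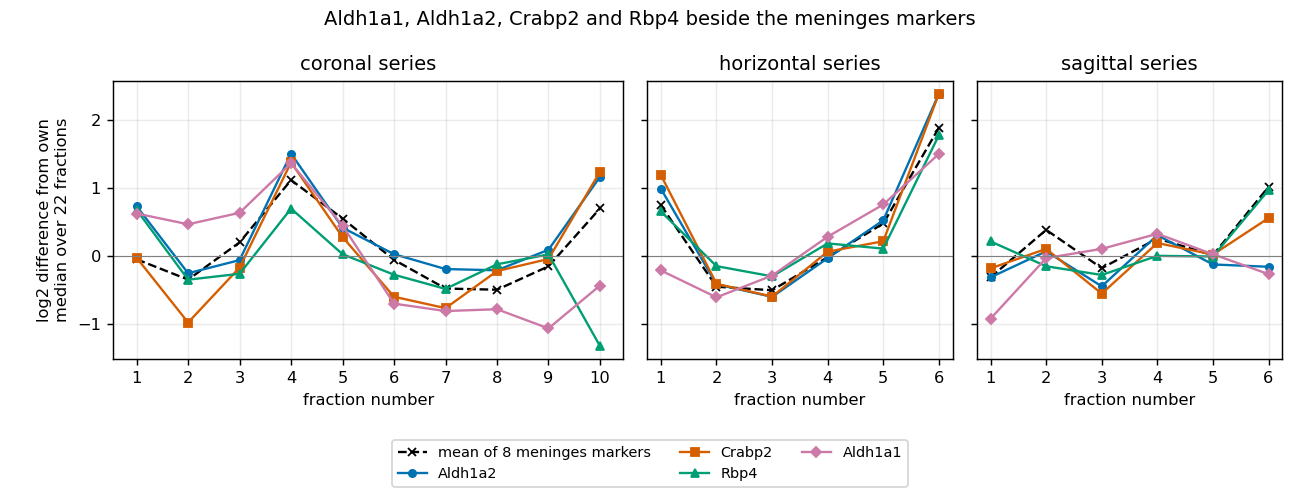
Log2 difference of each gene from its own median over 22 fractions, against fraction number, for Aldh1a1, Aldh1a2, Crabp2 and Rbp4 (solid lines) and for the mean of 8 meninges markers (dashed). Points are single arrays. Crabp2 and Aldh1a2 rise and fall with the marker mean in the coronal and horizontal series, Rbp4 does so in the horizontal series and is lowest in coronal fraction 10.

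Of the binding and transport genes, Crabp2, whose protein delivers the acid to the nucleus, moved with Aldh1a2. Its coronal levels were 2.84, 1.89, 2.69, 4.24, 3.14, 2.26, 2.10, 2.64, 2.82 and 4.10, highest in the same fractions 4 and 10. The horizontal levels were 4.05, 2.45, 2.27, 2.93, 3.08 and 5.24, highest in both outer slabs, a 7.87-fold range. Side to side the level lay between 2.31 and 3.42, highest in fraction 6. The horizontal change had an adjusted p of 0.0604 and the coronal change of 0.516 in limma. With the slide as a block the horizontal change passed (0.0446). All 6 horizontal arrays lay on 1 slide, so this block left their fitted curve alone. It changed only the estimate of scatter. Over 22 fractions the levels of Crabp2 and Aldh1a2 had r = 0.908, and r was 0.922 in the coronal, 0.989 in the horizontal and 0.586 in the sagittal series (0.241 without sagittal fraction 3, 0.912 without fraction 6). Over all fractions, leaving out horizontal fraction 6 gave the lowest value, 0.844. These are descriptions, since the fractions of a series share 1 mouse and the arrays share their scaling.

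The list of 8 meninges markers held Col1a1, Col1a2, Col3a1, Dcn, Lum, Slc6a13, Foxc1 and Igf2, and all 8 were well above background in every fraction. Its mean lay between 1.51 and 3.12 in the coronal, 1.5 and 3.89 in the horizontal and 1.69 and 3.02 in the sagittal series, and it peaked in fraction 4 of the coronal and in fraction 6 of the other series. Crabp2 ran with this mean at r = 0.920 over 22 fractions, and at 0.892, 0.981 and 0.880 within the coronal, horizontal and sagittal series. Aldh1a2 ran with it at r = 0.846 in all, at 0.876 and 0.998 in the coronal and horizontal series and at 0.390 in the sagittal series (0.214 without sagittal fraction 3, 0.854 without fraction 6). Other lists moved with these genes too. In the sagittal series the red blood cell mean was closer to Crabp2 (r = 0.940), and in the horizontal series Aldh1a2 had r = 0.868 with the hypothalamic and 0.823 with the endothelial mean. How much of either gene's change comes with the amount of meninges in a slab was not tested. The genes most like Crabp2 over 22 fractions were Serpind1 (r = 0.985), Gstm2 (0.971), Sult1a1 (0.968), Mpzl2 (0.967) and Slc6a13 (0.965). For Aldh1a2 they were Bmp7 (0.932), Slc6a13 (0.926), Mrc2 (0.925), Cxcl16 (0.919) and Gstm2 (0.912). Above the study's threshold for similar expression, r over 0.85, Crabp2 had 134 probes of 39620 and Aldh1a2 had 73.

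Rbp4, the retinol carrier of plasma, ran with Crabp2 in the horizontal series. Horizontally it read 2.42, 1.61, 1.46, 1.95, 1.87 and 3.53, with both outer slabs highest and an adjusted p of 0.0521 in limma. With the slide as a block, which cannot adjust a series held on 1 slide, it passed (0.0382). Coronally it read 2.44, 1.42, 1.5, 2.46, 1.79, 1.49, 1.28, 1.64, 1.78 and 0.44. Fraction 4 was highest, as for Crabp2 and Aldh1a2, but fraction 10, where those had another peak, was the lowest for Rbp4. Its r with Crabp2 was 0.987 in the horizontal series. The coronal r was 0.0666 with all 10 fractions, 0.800 without fraction 10 and -0.362 without fraction 4, so it depends on single arrays. With the mean of 3 endothelial markers Rbp4 had r = 0.743 in the coronal, 0.774 in the horizontal and 0.847 in the sagittal series (-0.638 without sagittal fraction 6), and the meninges mean gave 0.123, 0.966 and 0.716. From side to side the level was 1.98, 1.61, 1.48, 1.76, 1.75 and 2.73. Its most similar genes were Msln (r = 0.840), Fibin (0.820), Prg4 (0.809), Ccl19 (0.801) and A4galt (0.799), and no probe passed 0.85. Msln encodes mesothelin, a surface protein of mesothelial linings.

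Crabp1, which holds retinoic acid in the cytoplasm, followed neither Crabp2 nor Rbp4 (r = -0.116 and -0.114 over 22 fractions). The coronal levels were 1.77, 1.35, 0.43, 0.14, -0.81, 0.73, 1.79, 1.88, -0.51 and 1.61, with high values in fractions 1, 7, 8 and 10 and low ones in fractions 5 and 9. The horizontal levels were -1.62, -1.20, 0.03, 1.76, 1.71 and 1.04, lowest in fractions 1 and 2 and 10.4-fold higher in fraction 4 than in fraction 1. That change did not pass (limma, adjusted p = 0.0621). It did with the slide as a block (0.0148), which cannot adjust this series, held on 1 slide. Within the horizontal series the level ran against the brightness of a dim spike-in probe (r = -0.907), and the part of array quality was not tested. The gene most like Crabp1 was Penk, the precursor of the enkephalins made by striatal neurons (r = 0.873), then Pcp4l1 (0.820), Scn4b (0.787), Ap1s2 (0.778) and Slc35d3 (0.756).

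**Figure D3:**
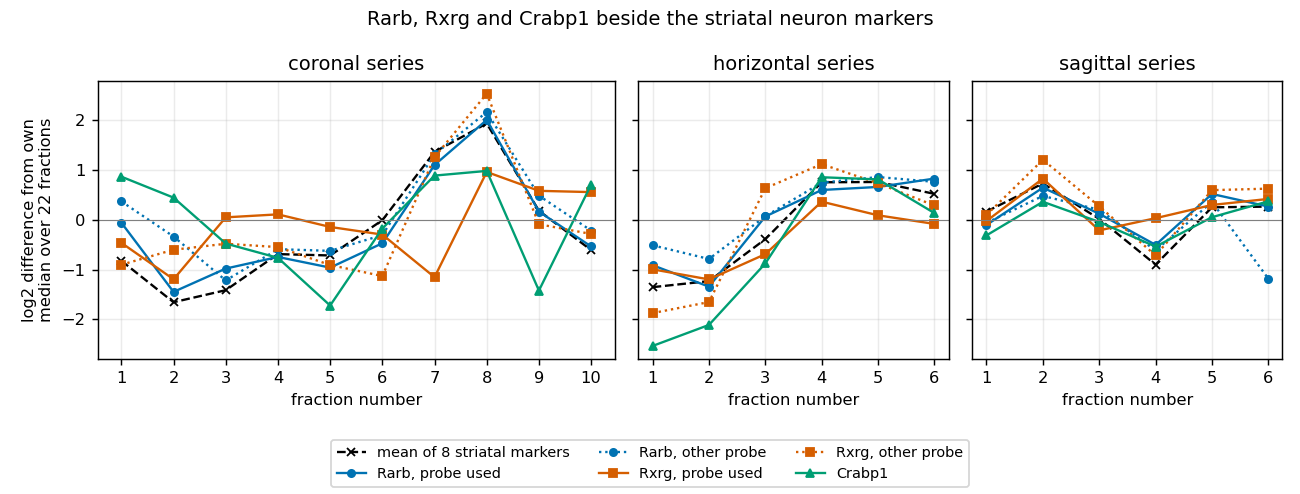
Log2 difference from the own median over 22 fractions, against fraction number, for both probes of Rarb, both probes of Rxrg and Crabp1, with the mean of 8 striatal neuron markers (dashed black). Points are single arrays. Both Rarb probes and the marker mean peak in coronal fraction 8, while the Rxrg probes part in coronal fraction 7.

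The degrading enzyme Cyp26b1 was highest in coronal fractions 2 and 3, where the mean of 6 cerebellar markers was highest too (3.85 and 3.71). Its coronal levels were 2.33, 4.04, 4.31, 3.47, 2.02, 3.08, 2.52, 1.57, 3.54 and 2.23, with fraction 8 lowest and a separate high value in fraction 9. Coronal r was 0.621 with the cerebellar and 0.288 with the hindbrain mean, which peaked in fraction 1. The horizontal levels were 0.98, 1.99, 3.03, 3.08, 3.36 and 2.91, lowest in fraction 1. Side to side the level was 2.50, 3.20, 3.16, 3.06, 3.06 and 2.16, lower in both outer slabs than in the 4 between them. None of these changes passed in limma (adjusted p = 0.375 coronal, 0.107 horizontal, 0.606 for the sagittal quadratic term). With the slide as a block the horizontal change did (0.0426), but this block cannot adjust a series held on 1 slide. Over 22 fractions Cyp26b1 ran with the means of 3 astrocyte markers (r = 0.636) and the cerebellar markers (r = 0.619). Its most similar genes were Angel1 (r = 0.818), Angpt1 (0.815), Rfc1 (0.814), Unc5c (0.804) and Nolc1 (0.800), and no probe passed 0.85. The other Cyp26 enzymes, Cyp26a1 and Cyp26c1, were not well above background on any of the 22 arrays.

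Cyp26b1 was lowest where Aldh1a3 was highest, in horizontal fraction 1 and coronal fraction 8. The pair had the lowest correlation of the 36 pairs among the 9 genes, r = -0.663 over 22 fractions, -0.785 in the coronal and -0.940 in the horizontal series. In the sagittal series the sign turned, to 0.498, since both were higher in the middle slabs. Leaving out single fractions moved the 22-fraction value between -0.741 and -0.513.

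**Figure D4:**
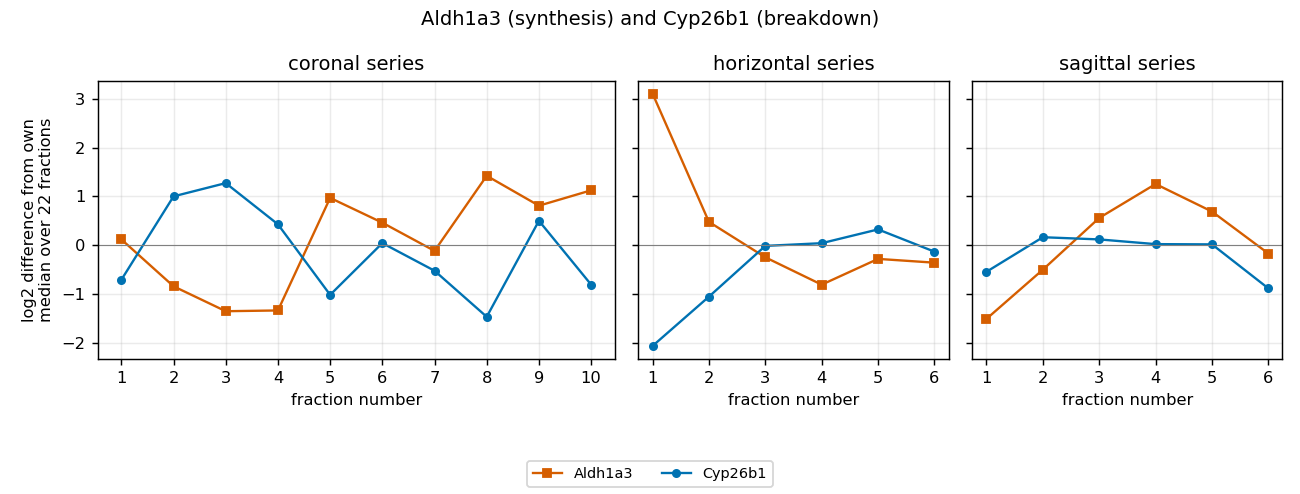
Log2 difference of Aldh1a3 and Cyp26b1 from their own median over 22 fractions, against fraction number, with 1 panel per series and 1 array per point. Their lines mirror each other in horizontal fractions 1 to 3 and coronal fraction 8, and run together in the sagittal series (r = 0.498).

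Of the receptors, Rarb is itself a classical target of retinoic acid, through a pair of receptor-binding cores in its promoter. The RefSeq table of promoters held 10 windows of 300 bases for 7 of the 9 genes, each from 250 bases before a transcript start to 50 after it. These were searched on both strands for direct repeats of the receptor's core, spelled AGGTCA in its consensus, with the variants AGTTCA and, on equal terms, GGGTCA as well as GGTTCA, with 5, 2 or 1 bases between the cores. A repeat with spacing 5 stood in 1 window, that of Rarb, at positions -53 to -37 from the start, and 0 of the 10 held one with spacing 2 or 1. Of 32851 promoter windows in the table, 32 (0.0974%) held a repeat with spacing 5, 88 (0.268%) one with spacing 2 and 73 (0.222%) one with spacing 1. A single core on either strand was found in 43.7% of all windows and in 5 of the 10. The 250 bases before the Rarb start, chr14:16575477-16575726 on the minus strand of GRCm38.p6, are printed 5′ to 3′ because they hold that repeat, with every core in capitals. A match of letters is a description and not a measured site.
Rarb: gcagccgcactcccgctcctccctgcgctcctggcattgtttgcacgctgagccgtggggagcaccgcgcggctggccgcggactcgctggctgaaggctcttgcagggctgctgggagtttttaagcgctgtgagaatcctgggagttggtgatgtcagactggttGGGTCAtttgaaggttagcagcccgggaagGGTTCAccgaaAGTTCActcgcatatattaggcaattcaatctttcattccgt

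The level of Rarb peaked in coronal fractions 7 and 8. From fraction 1 to 10 it was 0.81, -0.58, -0.11, 0.12, -0.09, 0.39, 1.96, 2.86, 1.03 and 0.33, a 10.9-fold range. A separate Rarb probe had its coronal peak in the same fraction 8 (r = 0.947 between the probes over 10 fractions, 0.853 over 22). From side to side r between them was 0.481 (0.970 without fraction 6), and the separate probe had its lowest sagittal level, -3.50, in fraction 6, which was not the lowest by the probe used. Horizontally Rarb was -0.05 and -0.48 in fractions 1 and 2 and 0.93, 1.46, 1.52 and 1.69 in fractions 3 to 6, without overlap. Side to side it was 0.76, 1.51, 0.98, 0.36, 1.38 and 1.13, lowest in fraction 4, with a high value on either side of it. The smooth curves did not pass (limma, adjusted p = 0.285 coronal and 0.196 horizontal).

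By the probe used, Rarb ran with the striatal markers in each series. The mean of 8 markers of medium spiny neurons, the main striatal cell type, was 3.19 in coronal fraction 8, its highest, and -0.386 in fraction 2, its lowest. All 8 were well above background in every fraction. Rarb ran with this mean at r = 0.948 over 22 fractions, at 0.951, 0.955 and 0.903 within the coronal, horizontal and sagittal series, and at 0.931 to 0.961 when any 1 fraction was left out. Horizontally the astrocyte mean was closer (0.983). The separate Rarb probe ran with the striatal mean at 0.813 over 22 fractions and at 0.430 in the sagittal series. The genes most like Rarb were Rgs9 (r = 0.906) and Ppp1r1b (0.887), both of that marker list and both signalling proteins of striatal neurons, then Arpp21 (0.882), Slc35d3 (0.868) and Inf2 (0.843). Above r = 0.85 there were 7 probes, not counting those of Rarb itself. Crabp1 ran with the striatal mean at r = 0.565 over 22 fractions, at 0.994 in the horizontal, 0.834 in the sagittal and 0.315 in the coronal series (0.0992 without coronal fraction 8). Horizontally its r was also 0.980 with the dopaminergic, 0.939 with the olfactory bulb and 0.930 with the hippocampal mean. Penk, the gene most like Crabp1, is itself 1 of the 8 striatal markers.

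Rxrg, a partner receptor of the RXR family, was read by 2 probes, with r = 0.535 between them over 22 fractions, 0.863 over the horizontal and 0.740 over the sagittal ones. Coronally r was 0.297, and it was 0.667 without fraction 7 and -0.260 without fraction 8. The first gave coronal levels of 2.12, 1.39, 2.63, 2.69, 2.44, 2.28, 1.43, 3.54, 3.16 and 3.13. The other gave 1.67, 1.97, 2.09, 2.02, 1.66, 1.44, 3.82, 5.10, 2.48 and 2.29. Both were highest in fraction 8, but in fraction 7 the first was near its lowest and the second at its second-highest level. Horizontal levels were 1.59, 1.39, 1.89, 2.94, 2.67 and 2.50 by the first and 0.70, 0.92, 3.20, 3.68, 3.30 and 2.86 by the second, both highest in fraction 4. Side to side both were highest in fraction 2, at 3.40 and 3.77. Neither probe passed in any series (limma, adjusted p = 0.207 and 0.319 coronal, 0.236 and 0.112 horizontal). Both probes carry the same RefSeq transcript, and the source of the difference was not tested. The first probe ran with the striatal mean at r = 0.498 and the second at 0.869 over 22 fractions. The most similar genes of the first were Mdh1 (0.797), Mpi (0.779), Pus7l (0.769), Adrm1 (0.766) and Chad (0.760). Each Rxrg value here holds for 1 probe and not for the gene.

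**Figure D5:**
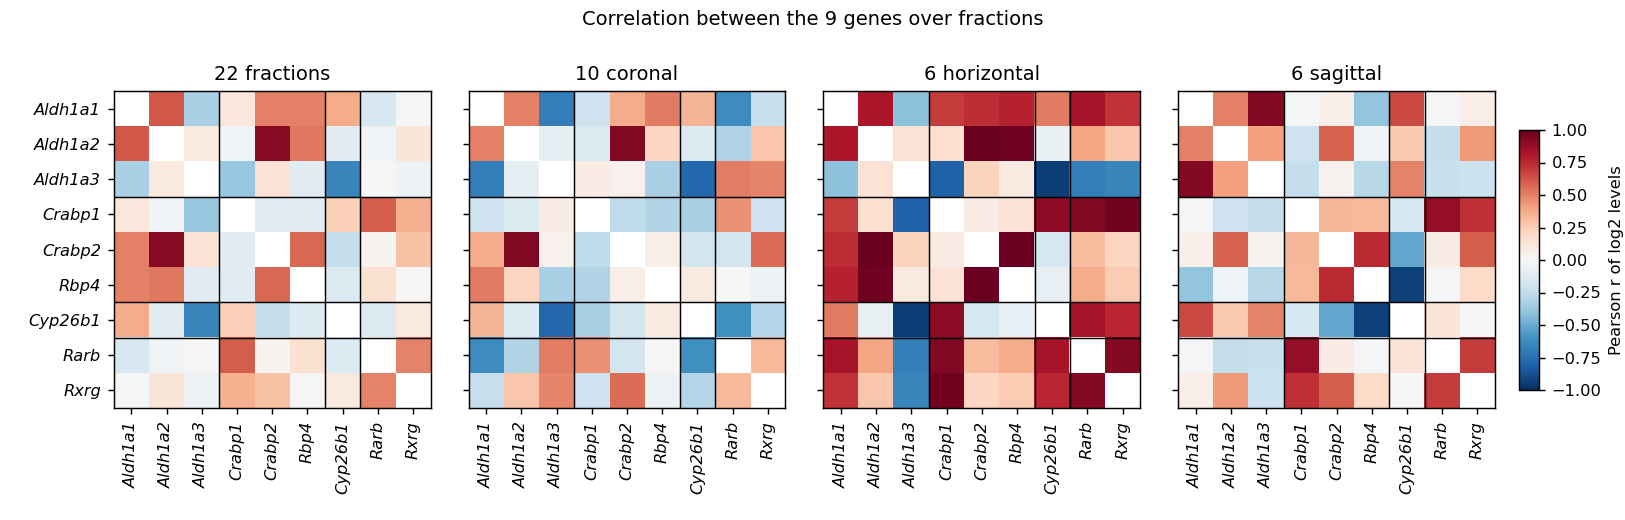
Pearson r between the log2 levels of the 9 genes, from -1 (blue) to 1 (red), over all 22 fractions and over the fractions of each series, with black lines between synthesis, binding and transport, breakdown and receptors. Aldh1a2 and Crabp2 have r = 0.908 over all fractions, and the horizontal panel holds more strong values of both signs than the coronal one.

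Correlations were then set side by side by role. The 7 pairs within a role had a median r of 0.0970 (from -0.325 to 0.619) and the 29 pairs across roles a median of 0.0297 (from -0.663 to 0.908). The 3 synthetic enzymes each had their own pattern, with r = 0.619 between Aldh1a1 and Aldh1a2, 0.0970 between Aldh1a2 and Aldh1a3 and -0.325 between Aldh1a1 and Aldh1a3. Across roles, Crabp1 and Rarb had r = 0.605, and 0.930 in the horizontal series. Within those 6 fractions several of the 9 also ran against the level of the dim spike-in probe, Rxrg at -0.932, Rarb at -0.848 and Aldh1a1 at -0.842.

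A wider list of 54 retinoid genes was read for the rest of the pathway, and 47 were well above background in at least 1 fraction of each series and were tested. Along the coronal axis 21 of the 47 changed (44.7%), 12 with a rising and 9 with a falling linear term, beside 25.4% of 16691 probes of named genes. With the slide as a block 5 passed (4.03% of all probes) and with the coronal arrays alone 4 (1.60%). Along the horizontal axis 8 changed, all with a rising linear term, beside 8.35% of such probes. None of the 47 passed horizontally without horizontal fraction 1 (9 of 39621 probes), with the linear term only, with arrays of in-range slope or with the horizontal arrays alone. The sagittal linear term passed for 4 (8.51%, beside 9.69% of such probes), of which 2 rose and 2 fell, and the quadratic term for 0 (limma, with 9 at an unadjusted p under 0.05). The median fitted range of the list was 1.04 log2 units coronally and 0.917 horizontally.

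Among uptake genes, Lrp2, a large endocytic receptor, passed along the coronal axis (adjusted p = 0.0361, limma), but only 13 of its 22 values stood well above background and the others are not measured levels. Of the enzymes between retinol and retinal, Rdh5 fell by 3.37 ± 0.514 log2 units from coronal fraction 1 to 10 (0.00255). Rdh1 passed with a rising term (0.00590), but only 9 of its 22 values stood well above background, so no size is given. Rdh11, Rdh13 and Dhrs4 also changed coronally (adjusted p = 0.0367 to 0.0467), and the alcohol dehydrogenase Adh1 changed horizontally, highest in fraction 6 (0.0295). Rdh10, the main retinol dehydrogenase of the embryo, stayed between -2.21 and -1.36 over all fractions and passed no test. Lrat, which esterifies retinol for storage, passed coronally (0.0486), but only 3 of its 22 values were well above background, so no size or direction is given.

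The other receptors that passed were Rara, Rarg and Rxrb, each with a rising coronal linear term. Their fitted ranges were 1.62, 1.29 and 0.638 log2 units (adjusted p = 0.00598, 0.0438 and 0.0432, limma). Of the cofactors, Nrip1, Ncoa1, Ncoa2 and Ncoa3 changed coronally with fitted ranges from 0.945 to 1.55, and Ncor1 changed along both axes and fell from side to side by 1.5 ± 0.215 (adjusted p = 0.00369). Nrip1 fell from side to side as well, by 1.35 ± 0.350, while Fabp5, another carrier of the acid, rose by 1.01 ± 0.277. Without sagittal fraction 6, which pooled slabs 7 to 9, none of the listed genes and 0 of the 39621 probes passed this sagittal test in limma.

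Of the genes known to respond to retinoic acid, Hoxa4, Hoxb4 and Meis1, which pattern the hindbrain, fell along the coronal axis, with linear terms of -4.92 ± 0.673, -7.61 ± 1.32 and -2.98 ± 0.713 log2 units (SE). Hoxa4 and Hoxb4 were each well above background in 11 of 22 fractions, so their low ends are not measured levels and the sizes of these falls are not either. Meis2 rose by 2.64 ± 0.426 and Pdgfra peaked in the middle of the coronal series. Horizontally, Meis1, Tgm2 and Pdgfra changed (adjusted p = 0.0375, 0.0406 and 0.0202, limma). With the spike-in level as a covariate 10 of the 47 passed coronally, beside 10.8% of all probes, and 0 horizontally, beside 0.151%.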

How the data were processed

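Total RNA of 22 fractions was measured on Agilent 1-colour mouse arrays. Per the file headers, the authors extracted spots with Agilent Feature Extraction, which subtracts the background and gives a processed intensity on a linear scale, and the array design used the mm9 build. A log2 table deposited by the authors holds the same intensities scaled to each array's 75th percentile, within 0.02 for 99.9% of its values.

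Control and outlier spots were left out, spots of a probe were averaged, and log2 values were set relative to the array's 75th percentile. A gene was read from the RefSeq-identified probe with the highest median over 22 arrays, and symbols came from a RefSeq table of GRCm38.p6, used for names and promoters (26553 of 28087 such probes matched). Probes well above background in at least 1 fraction of each series (39621) were fitted with limma 3.58.1 in R 4.3.3, in 1 model with a level, a slope and a quadratic curvature along the slabs per series (13 residual degrees of freedom). Python 3.11.15 with numpy 2.4.6, pandas 2.3.3 and matplotlib 3.10.9 gave the other values. The fit was tested on simulated data. Fractions were grouped by section plane, the midpoint of a fraction's slabs was its position, and the labels' slab of 100 slices of 5 µm is thinner than in the study's methods, so no lengths are given. P-values measure scatter between single arrays of 1 mouse per series.

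The 9 genes, the pathway and marker lists and the tests were chosen with earlier results of these data known. By rule the text names all 9, for each the 5 genes with the highest Pearson r over 22 fractions, and every pathway gene past the threshold, of which some are not reported here. Alternatives were other scalings, background correction (normexp with an offset of 50, on the median spot signal), the deposited table, filters, quality covariates, the slide as a block, each series alone, other probes and leaving out single fractions. Repeated spots of bright probes differed by an SD of 0.0647 log2 units (median array) and of dim probes by 0.339, which is error within an array only.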

Additional observations from a re-analysis of the deposited data

Results flagged for a closer look

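In each series the highest and the lowest fraction of each of the 9 genes were compared with the rest of the series, which made 27 checks. Aldh1a3 in horizontal fraction 1 stood apart, at 0.69 against a next highest level of -1.94, a gap of 0.671 of the whole range of the 6 fractions. Chance flags about 1 in 20 groups, so a single one of 27 is no more than chance would give. The fraction is among the 7 whose spike-in slope was out of range, and the probe was well above background in it.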

How the results depend on the processing

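The number of the 9 genes that changed was small and moved with the processing, without a turn of direction in any called gene. The share of all probes tested that passed is given in brackets. Coronally the number was 1 (19.8%). It was 0 with median centring (14.3%) or the coronal arrays alone (1.60%). It was 2 after quantile normalization (16.6%) or with probes well above background on all arrays (32.8%). Without single fractions it was 0 to 3, with 0 without coronal fraction 9 (14.8%) and 3 without coronal fraction 1 (27.0%). The slide as a block (4.03%) kept the number at 1 but for another gene, Crabp1 (limma, adjusted p = 0.0341) in place of Aldh1a1. Horizontally the number was 2 (6.57%). It was 0 with median centring (3.09%), the dim spike-in probe as a covariate (0.151%) or arrays of in-range slope (0.00505%). The linear term only (0.520%) and the horizontal arrays alone (0%) also gave 0. Quantile normalization (8.68%) and normexp (5.25%) each gave 3. Probes well above background on all arrays gave 6 (16.1%). The slide as a block gave 6 too (13.6%), although it cannot adjust the horizontal arrays, all on 1 slide. Leaving out single fractions gave 0 to 6 (0 without any of horizontal fractions 1 to 5, with 0.0227% to 2.83% of probes). Both sagittal numbers were 0 in each alternative run. Of 386 single tests under alternatives other than leaving out a fraction, 360 stayed on their side of the threshold. Most of the tests had not passed in the main fit, so this share says little about the calls made. Among those that changed side, 13 lost a call, all for Aldh1a1 coronally or Aldh1a2 and Aldh1a3 horizontally, and 13 gained one. The pathway list was also run under the other alternatives, chosen after seeing the data. Its 21 coronal genes became 10 with the spike-in covariate or the linear term only, 12 with arrays of in-range slope, 5 with the slide as a block, 4 with the coronal arrays alone and 13 to 22 without single fractions (13 without coronal fraction 2, 6 or 7). Its 8 horizontal genes became 5 with median centring or no filter on dim probes, 0 with the covariate, in-range arrays, the linear term only or the series alone, and 0 to 12 without single fractions (0 without horizontal fraction 1, 12 without coronal fraction 2). Its 4 sagittal genes became 1 with median centring, 2 with quantile normalization, the covariate, no filter or in-range arrays, 0 with the linear term only or the series alone, and 0 to 6 without single fractions (0 without sagittal fraction 6). The share of all probes called was lower than reported in each of these cases other than leaving out single fractions.

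The median r of the 36 pairs was 0.0633. It became 0.183 with median centring, -0.0061 with the spike-in level removed, -0.069 within the coronal and 0.345 within the horizontal series, and lay between 0.0151 and 0.12 without single fractions. Aldh1a3 and Cyp26b1 had r of 0.498 within the sagittal series against -0.663 in all. Leaving out single fractions within a series, an alternative chosen after seeing the data, gave the values printed beside those correlations. The causes were not tested. No paired analysis was possible because equal fraction numbers in different series are positions along different axes of different mice. Signal over background limited the list and not the 9 genes, since 7 listed genes were not tested.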
